A study of Mus musculus with 6 samples.

Results

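The mature microRNAs (miRNAs) described here are 10 arms cut from a single stretch of the mouse X chromosome: both arms of miR-322, miR-503, miR-351 and miR-542, and the 5p arms of miR-450a and miR-450b. They were chosen because their precursors lie side by side and because several of them were known to be lower in caNrf2 than in ctrl fibroblasts, so their values and edgeR calls in that comparison are given as a description, and nothing is supported with them. They are 10 of 1907 mature miRNA names counted, and all 10 had enough counts to enter the fit of 697 miRNAs. Their precursors also give 3 arms outside the 10, miR-450a-1-3p, miR-450a-2-3p and miR-450b-3p, whose values are given separately.

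The counts came from primary dermal fibroblasts of newborn mice of mixed background (50% C57Bl/6, 50% FVB/N), cultured for 6 days and taken at passage 1. The 3 caNrf2 libraries (genotype Col1a2Cre-caNrf2) came from mice carrying a Cre recombinase and a constitutively active mutant of Nrf2, which switches on genes of the oxidative stress response. The 3 ctrl libraries (genotype Col1a2Cre-wt) came from mice with the Cre alone, so all 6 mice carried the Cre. Cre was driven by the Col1a2 promoter, which is active in collagen-making cells such as fibroblasts. Each library was from a different mouse.

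A miRNA precursor folds into a hairpin, and its 5p and 3p strands are both released when the hairpin is cut. As a rule 1 of them is kept by an Argonaute protein as the guide, and the other is degraded. Bases 2 to 8 of the guide, the seed, pair with target messenger RNAs, so miRNAs with the same seed share many targets. miR-322 is the mouse counterpart of human miR-424. Together with miR-503 it belongs to the extended miR-16 group, known for repressing cyclins and other drivers of the cell cycle, and it is induced when myoblasts leave the cell cycle to form muscle.

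The mature sequences of the 10 arms are shown because the seeds decide which other miRNAs can be compared with them. They were taken from RefSeq (GRCm38.p6, the same assembly as mm10), run 5′ to 3′, and have the seed in capitals. The prefix mmu- (mouse) is left out after this list.

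mmu-miR-322-5p: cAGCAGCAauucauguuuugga
mmu-miR-322-3p: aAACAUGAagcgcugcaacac
mmu-miR-503-5p: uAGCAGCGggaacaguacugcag
mmu-miR-503-3p: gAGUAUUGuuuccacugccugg
mmu-miR-351-5p: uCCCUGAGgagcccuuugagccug
mmu-miR-351-3p: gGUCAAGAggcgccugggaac
mmu-miR-542-5p: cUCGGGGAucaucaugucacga
mmu-miR-542-3p: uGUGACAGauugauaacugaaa
mmu-miR-450a-5p: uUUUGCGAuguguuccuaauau
mmu-miR-450b-5p: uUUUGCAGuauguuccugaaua

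No 2 of the 10 arms have the same seed. miR-322-5p and miR-503-5p differ there by 1 substitution, A8G from miR-322-5p to miR-503-5p, counted from 1 at the 5′ end. From miR-450a-5p to miR-450b-5p the seed carries 2 substitutions, G7A and A8G, and the whole sequences differ at 7 positions. miR-450a-5p can be cut from either of 2 precursors, and its counts do not tell them apart.

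The 7 precursors span 6353 bases of the minus strand of chromosome X (mm10, 53047997 to 53054349). In the direction of transcription Mir322 comes first (53054255 to 53054349), followed by Mir503 200 bases further on (53053984 to 53054054) and Mir351 after another 630 bases (53053255 to 53053353). A gap of 3767 bases, in which GENCODE places the long noncoding RNA gene Gm28730, separates Mir351 from Mir542 (53049403 to 53049487). Mir450-2 (53048299 to 53048367), Mir450-1 (53048154 to 53048244) and Mir450b (53047997 to 53048078) close the series. RefSeq places Mir322, Mir503 and Mir351 inside the bounds of the long noncoding RNA gene C430049B03Rik, and leaves the other 4 outside it. In GENCODE M21 that gene ends before Mir322 and none of the 7 lies inside it.

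The hairpins of Mir322 and Mir542 are shown with both mature arms in capitals, because the balance of the Mir322 arms and the small difference at Mir542 recur in the results.

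Mir322: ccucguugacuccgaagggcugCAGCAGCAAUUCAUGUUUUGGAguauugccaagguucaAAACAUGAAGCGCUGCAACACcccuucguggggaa
Mir542: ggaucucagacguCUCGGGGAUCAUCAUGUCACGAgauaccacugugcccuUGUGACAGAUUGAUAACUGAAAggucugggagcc

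Library totals ranged from 10443268 to 28237159 counts, and the file headers name the same sequencing run and lane for all 6 libraries. Levels are given as CPM, counts divided by the library total as scaled by edgeR's trimmed mean (TMM) factors. They are relative to the rest of each library, and less miRNA per cell cannot be told apart from fewer cells that make it. A count of 3 corresponded to 0.107 to 0.289 CPM. Of 8 miRNAs typical of fibroblasts and other mesenchymal cells all were detected, with a summed level of 456737 to 467475 CPM in ctrl and 479519 to 517266 CPM in caNrf2 libraries. Of these 8, 1 rose and 3 fell, with a median log2 fold change of -0.12, and the most abundant were miR-22-3p and miR-21a-5p. Over all 697 miRNAs tested, 81 were lower and 98 higher in caNrf2 fibroblasts (edgeR quasi-likelihood test, Benjamini-Hochberg adjusted p under 0.05).

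The arms differed in level by up to 739-fold between the highest and the lowest mean. A read covers a whole mature miRNA of 21 to 24 bases, so levels of different arms were compared in CPM without scaling by length. How evenly different sequences were captured was not measured, so every comparison between sequences here is one of counts. The sign-flip tests of order and of arms below show only that a difference repeated across libraries. Averaged over all 6 libraries, miR-351-5p (5833 CPM) and miR-322-5p (2458 CPM) led, and together they held 87.5% ± 0.27 of the cluster's counts in ctrl and 86.8% ± 0.45 in caNrf2 libraries (mean ± SD, n = 3). miR-322-3p followed at 783 CPM. A middle group held miR-450b-5p (149 CPM), miR-450a-5p (139.7 CPM) and miR-542-3p (105 CPM). The lowest were miR-503-3p (13.4 CPM), miR-542-5p (10.2 CPM), miR-503-5p (8.44 CPM) and miR-351-3p (7.90 CPM).

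Of the 9 neighbouring pairs in this order, 5 kept their order in 6 of 6 libraries. Each of these pairs reached the smallest p that 6 libraries allow in a two-sided exact sign-flip permutation test, 0.03125, which became 0.05625 when adjusted over the 9 pairs, so no pair passed after adjustment. The steps were from miR-351-5p to miR-322-5p, on to miR-322-3p, on to miR-450b-5p, from miR-450a-5p to miR-542-3p, and on to miR-503-3p. miR-450b-5p and miR-450a-5p were 1.07-fold apart and each was the higher one in 3 libraries (exact permutation p = 0.375, adjusted 0.422). Their order followed the genotype: the ratio of miR-450b-5p to miR-450a-5p was 1.23, 1.11 and 1.09 in ctrl libraries 1, 2 and 3 and 0.9501, 0.998 and 0.933 in caNrf2 libraries 1, 2 and 3. miR-503-5p was likewise above miR-542-5p in all 3 ctrl libraries and below it in all 3 caNrf2 libraries. Among the 4 lowest arms no neighbouring pair passed, with adjusted exact permutation p from 0.281 to 0.625 for the 3 pairs. Arms further apart in the order were not compared here, apart from the 2 arms of 1 hairpin.

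The arm with the higher level changed from precursor to precursor. In Mir322 the 5p arm was 3.14-fold higher than the 3p arm, in Mir351 739-fold and in Mir450b 29.0-fold, each in 6 of 6 libraries. In Mir542 the 3p arm was 10.3-fold higher than the 5p arm, and in Mir503 it was 1.58-fold higher, again in 6 of 6 libraries. All 5 arm differences had an exact sign-flip permutation p of 0.03125 (two-sided, n = 6 libraries), also when adjusted over the 5 precursors. Mir503, with the most even arms, and Mir351, with the most uneven, are direct neighbours.

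**Figure D1:**
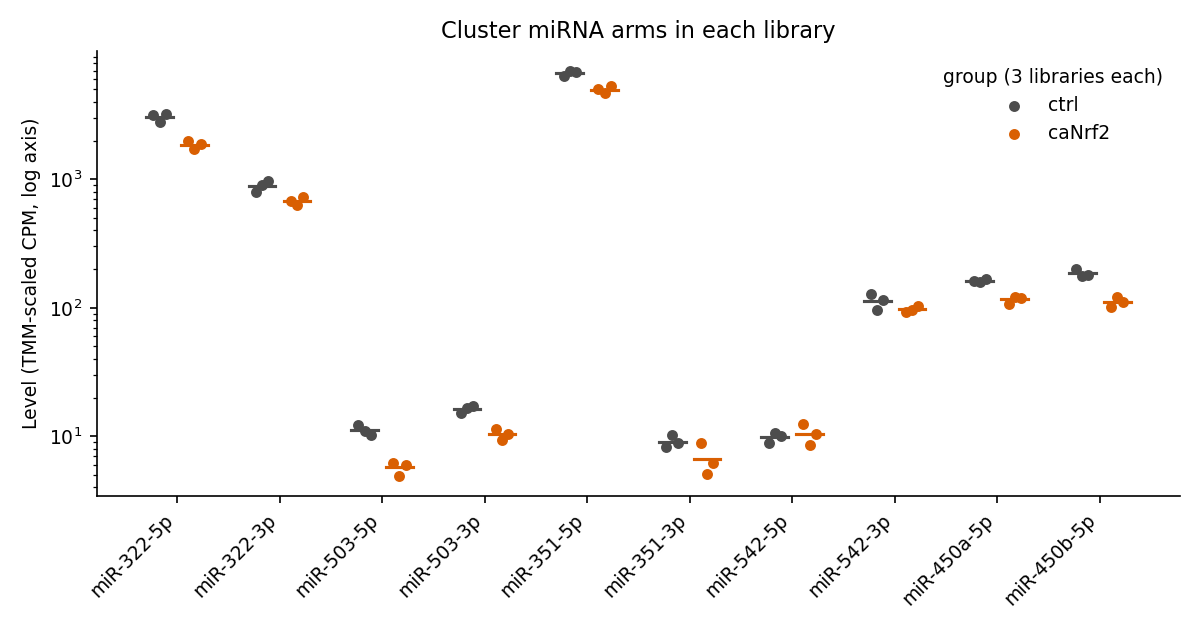
Level of each of the 10 arms in TMM-scaled CPM (y axis, logarithmic) in the 3 ctrl (grey) and 3 caNrf2 (orange) libraries, with a bar at each group mean. The caNrf2 points lie below all ctrl points for 7 arms, and the groups overlap for miR-351-3p, miR-542-5p and miR-542-3p.

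Between the genotypes, the cluster as a whole was lower in caNrf2 fibroblasts, but unevenly. The 10 arms held 1.07%, 1.11% and 1.13% of all counts in ctrl libraries 1, 2 and 3 and 0.833%, 0.735% and 0.814% in caNrf2 libraries 1, 2 and 3, with no overlap between the groups. Of the 10, 7 were called lower and none higher, beside 11.6% of all tested miRNAs called lower. For the same 7 arms every caNrf2 value was below every ctrl value, beside 17.9% of all tested miRNAs. Nothing is read from these counts, since the arms were chosen with this comparison known. The median log2 fold change was -0.47 over the 10 arms and 0.03 over all tested miRNAs, and single arms ranged from -0.96 to 0.08.

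The 2 arms of Mir322, which opens the cluster, were both lower but by different amounts. miR-322-5p, the arm with the miR-16 type seed AGCAGCA, had 3150.5, 2777 and 3239.9 CPM in ctrl libraries 1, 2 and 3 and 1993, 1720.2 and 1865 CPM in caNrf2 libraries 1, 2 and 3. Every caNrf2 library was below every ctrl library, and the mean was 39.1% lower (log2 fold change -0.72 ± 0.09, SE). miR-322-3p, the less abundant strand of the same hairpin, had 791, 896 and 969 CPM in ctrl and 679.6, 635 and 727 CPM in caNrf2 libraries. Its groups did not overlap either, but the gap between them was narrow and the mean was 23.1% lower (log2 fold change -0.38 ± 0.09, SE). Without ctrl library 3, in which this arm was highest, its log2 fold change was -0.31 and it was no longer called, which left 6 of the 10 arms called lower.

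Mir503 gave the largest relative decrease of any precursor of the cluster. miR-503-5p, which differs from the miR-322-5p seed by 1 base and likewise acts on cell cycle genes, had 12.2, 11.0 and 10.3 CPM in ctrl and 6.24, 4.94 and 6.01 CPM in caNrf2 libraries. The highest caNrf2 value was well below the lowest ctrl value, and the mean was 48.6% lower (log2 fold change -0.96 ± 0.15, SE). This was the 9th most negative of the 697 log2 fold changes, although the level is so low that it rests on 89 to 208 counts per library. miR-503-3p had 15.1, 16.6 and 17.3 CPM in ctrl and 11.4, 9.31 and 10.4 CPM in caNrf2 libraries, with no overlap and a mean 36.5% lower.

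Mir351 had the most abundant arm. miR-351-5p, which carries the seed of the miR-125 family, had 6302, 6955 and 6806 CPM in ctrl and 5011, 4655 and 5271 CPM in caNrf2 libraries. The groups did not overlap and the mean was 25.5% lower (log2 fold change -0.43 ± 0.08, SE). Its rarely kept 3p arm had 8.19, 10.2 and 8.94 CPM in ctrl and 8.84, 5.07 and 6.19 CPM in caNrf2 libraries, so caNrf2 library 1 lay among the ctrl values. miR-351-3p had a log2 fold change of -0.46 ± 0.20 (SE) and was not called. Without caNrf2 library 1 it was -0.70 and the arm was called, which made 8 of 10.

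Mir542 was the precursor that differed least between the genotypes. Its main arm miR-542-3p, reported to target the survivin gene Birc5, had 127, 96.3 and 114 CPM in ctrl and 93.2, 96.9 and 103 CPM in caNrf2 libraries. ctrl library 2 lay within the caNrf2 range, and the log2 fold change was -0.20 ± 0.12 (SE). It was -0.12 without ctrl library 1 and -0.31 without ctrl library 2, and the arm was called in neither case. miR-542-5p had 8.86, 10.6 and 9.97 CPM in ctrl and 12.5, 8.52 and 10.5 CPM in caNrf2 libraries, with overlapping groups. caNrf2 library 1 lay above all ctrl values and caNrf2 library 2 below them. The log2 fold change of miR-542-5p, 0.08 ± 0.17 (SE), was the only positive one among the 10. It became -0.057 without caNrf2 library 1. Neither arm was called.

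The miR-450 precursors at the far end were again lower. miR-450a-5p had 163, 160.0 and 166 CPM in ctrl and 107, 122 and 120.0 CPM in caNrf2 libraries, a mean 28.6% lower (log2 fold change -0.48 ± 0.10, SE). miR-450b-5p had 200.3, 177 and 180.3 CPM in ctrl and 102, 122 and 112 CPM in caNrf2 libraries, a mean 39.9% lower (log2 fold change -0.73 ± 0.10, SE). In both arms all caNrf2 libraries were below all ctrl libraries. The 3p arms of these hairpins, which are not among the 10, were rare. miR-450b-3p had 5.88 ± 0.95 CPM in ctrl and 4.41 ± 1.60 CPM in caNrf2 libraries (SD, n = 3) and overlapped between groups. miR-450a-1-3p, which differs from it at 2 positions, had 43 counts over the ctrl and 38 over the caNrf2 libraries. miR-450a-2-3p had 25 and 31 counts and was too low to be tested. Neither miR-450b-3p nor miR-450a-1-3p was called.

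**Figure D2:**
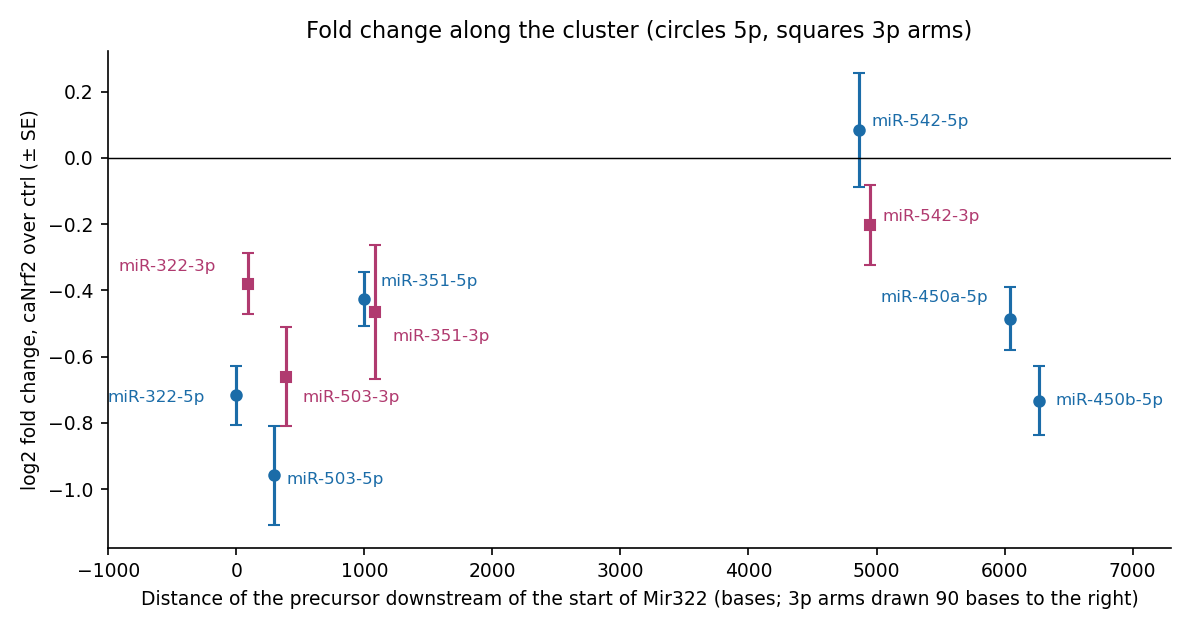
log2 fold change of caNrf2 over ctrl with its SE (y axis) for each of the 10 arms, placed by the distance of its precursor downstream of the start of Mir322 in bases (x axis; circles 5p arms, squares 3p arms). The values fall between -0.96 and -0.38 at both ends of the cluster, and the arms of Mir542 sit at -0.20 and 0.08 between them.

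Summed over their arms, the precursors kept this pattern. Mir503 had 27.5 ± 0.12 CPM in ctrl and 16.1 ± 1.73 CPM in caNrf2 libraries, a ratio of 0.586. The ratio was 0.645 for Mir322, 0.656 for the 3 miR-450 precursors together and 0.744 for Mir351, none with overlapping groups. Mir542 had 122 ± 14.6 and 108 ± 4.56 CPM, a ratio of 0.885 with overlapping groups. Within libraries its main arm was compared with its neighbours. The ratio of miR-542-3p to miR-322-5p was 0.0403, 0.0347 and 0.0352 in ctrl libraries 1, 2 and 3 and 0.0468, 0.0563 and 0.0552 in caNrf2 libraries 1, 2 and 3, without overlap, a measure that no scaling between libraries can alter. Against miR-351-5p the same ratio ran from 0.0138 to 0.0202 in ctrl and from 0.0186 to 0.0208 in caNrf2 libraries and did overlap. Against miR-450a-5p it did not overlap (mean 0.689 in ctrl and 0.841 in caNrf2 libraries). Separation from miR-322-5p was not particular to miR-542-3p. The ratios of miR-351-5p (mean 2.202 in ctrl, 2.682 in caNrf2) and miR-322-3p (0.291 and 0.367) to miR-322-5p did not overlap either. That of miR-503-5p to miR-322-5p did overlap.

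In part of the cluster the shares of the arms of 1 hairpin did not overlap between the genotypes. These shares come from the comparison known when the arms were chosen, so they are a description and were not tested. How often such shares separate in other hairpins was not measured. The 5p arm made up 79.9%, 75.6% and 76.98% of the Mir322 counts in ctrl libraries 1, 2 and 3 and 74.6%, 73.1% and 71.9% in caNrf2 libraries 1, 2 and 3. The groups did not overlap, and no 95% Wilson interval was wider than 0.874 points. The difference of the means, caNrf2 minus ctrl, was -4.32 points, and -5.27 to -3.10 points when any 1 library was left out. In Mir503 the 5p arm held 44.7%, 39.7% and 37.3% in ctrl and 35.3%, 34.7% and 36.7% in caNrf2 libraries. These shares did not overlap, but their Wilson intervals were up to 11.7 points wide. Those of ctrl library 3 and each caNrf2 library covered each other's values, as did those of ctrl library 2 and caNrf2 library 3. The differences within these pairs were not detectable at this depth. The intervals cover counting error only, since reads amplified by PCR are not independent molecules.

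In the other precursors the arm shares overlapped between the genotypes. The 5p arm of Mir542 took 8.17% ± 1.72 of the counts in ctrl and 9.71% ± 1.91 in caNrf2 libraries (SD, n = 3). That of Mir351 took 99.86% ± 0.01 and 99.87% ± 0.04, and that of Mir450b 96.95% ± 0.28 and 96.1% ± 1.67.

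**Figure D3:**
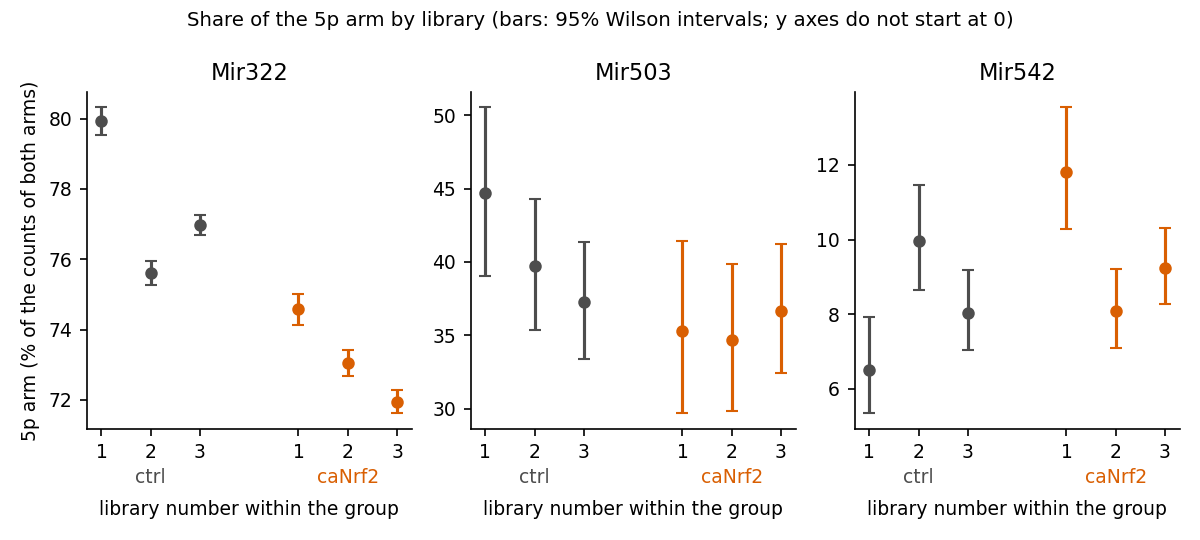
Share of the 5p arm among the counts of both arms (y axes, percent, each with its own range and not starting at 0) in each ctrl (grey) and caNrf2 (orange) library for Mir322, Mir503 and Mir542; bars are 95% Wilson intervals. For Mir322 all 3 caNrf2 libraries lie below all 3 ctrl libraries, while those for Mir542 are mixed.

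The seeds tie the cluster to other miRNAs of these cells, which were chosen by sequence. Outside the cluster 14 names share bases 2 to 8 with 1 of the 10 arms, and 7 of them had enough counts to be tested. Of these 7, miR-15b-5p and miR-125b-5p fell and none rose, and their median log2 fold change was -0.15, beside 25.7% called in either direction and a median of 0.03 over all tested miRNAs. Among names matched to a mature sequence, no tested miRNA shared the seed of miR-503-5p, miR-542-3p or the other 6 arms. The relatives are shown to make the shared seed visible.

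miR-15a-5p: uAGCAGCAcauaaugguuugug
miR-15b-5p: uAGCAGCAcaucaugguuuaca
miR-16-5p: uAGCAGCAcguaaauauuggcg
miR-195a-5p: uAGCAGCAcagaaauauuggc
miR-497a-5p: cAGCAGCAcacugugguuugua
miR-125a-5p: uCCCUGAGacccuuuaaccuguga
miR-125b-5p: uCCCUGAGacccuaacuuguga

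Among the 5 tested relatives of miR-322-5p, known as repressors of the cell cycle, miR-15b-5p fell from 500.1 ± 35.0 to 362 ± 44.3 CPM (log2 fold change -0.47 ± 0.10, edgeR adjusted p = 0.00696). miR-16-5p, the most abundant miRNA with this seed, had 13563 ± 1522 and 11025 ± 1379 CPM with overlapping groups (log2 fold change -0.30 ± 0.11, edgeR adjusted p = 0.0825). It passed the threshold in the same direction in 6 of 14 alternative analyses, with edgeR, DESeq2 or limma adjusted p from 0.0178 to 0.203 over all 14. miR-15a-5p, miR-195a-5p and miR-497a-5p had log2 fold changes of -0.15, -0.10 and -0.07 and did not pass (edgeR adjusted p = 0.199, 0.693 and 0.659). miR-195a-5p was at 0.034 without caNrf2 library 2. The summed level of all miRNAs with this seed outside the cluster was 14845 ± 1541 CPM in ctrl and 12099 ± 1454 CPM in caNrf2 libraries (two-sided exact permutation p = 0.2, where 3 against 3 libraries cannot go below 0.1).

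The part that miR-322-5p takes in its seed group was smaller in caNrf2 fibroblasts. It made up 16.3%, 17.4% and 17.5% of the summed CPM with the seed AGCAGCA in ctrl libraries 1, 2 and 3 and 12.8%, 13.8% and 13.5% in caNrf2 libraries 1, 2 and 3, without overlap. This share contains the level of miR-322-5p, which was chosen with this comparison known, so it is a description and was not tested. Most of the summed CPM with this seed came from miR-16-5p in both genotypes. miR-322-5p and its relatives together had 17901 ± 1763 CPM in ctrl and 13959 ± 1589 CPM in caNrf2 libraries, a ratio of 0.780.

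The seed of miR-351-5p is shared by miR-125a-5p and miR-125b-5p, miRNAs abundant in many mesenchymal cells. miR-125b-5p fell from 10532 ± 1768 to 8084 ± 236 CPM (log2 fold change -0.38 ± 0.11, edgeR adjusted p = 0.0299). The call was lost without ctrl library 2 (log2 fold change -0.24, edgeR adjusted p = 0.0656) and without any 1 of the caNrf2 libraries (edgeR adjusted p from 0.0595 to 0.0689), where the log2 fold change stayed between -0.41 and -0.38. miR-125a-5p had 8997 ± 674 and 8905 ± 735 CPM (log2 fold change -0.01 ± 0.09, edgeR adjusted p = 0.932). miR-351-5p held 25.6% ± 1.85 of the summed CPM with this seed in ctrl and 22.7% ± 1.03 in caNrf2 libraries. The ranges overlapped, the highest caNrf2 value being 23.8% and the lowest ctrl value 23.7%. The summed level of the seed outside the cluster was 19529 ± 2441 CPM in ctrl and 16989 ± 878 CPM in caNrf2 libraries (exact permutation p = 0.1, the smallest possible, and 0.2 adjusted over both seeds). The log2 ratio of these sums was -0.20 with all libraries and -0.094 without ctrl library 2.

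**Figure D4:**
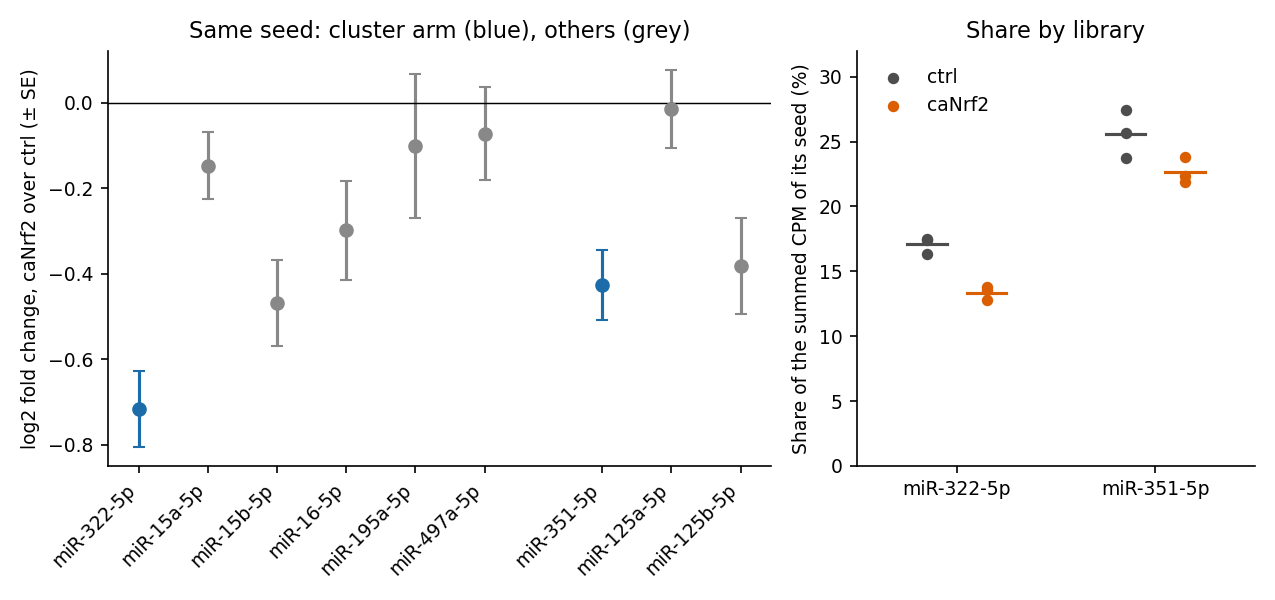
Left, log2 fold change of caNrf2 over ctrl with its SE (y axis) for miR-322-5p and miR-351-5p (blue) and the tested miRNAs with the same seed (grey). Right, share of each cluster arm in the summed CPM of its seed (y axis, percent) by library, with bars at the means of ctrl (grey) and caNrf2 (orange); for miR-322-5p the caNrf2 libraries lie between 12.8% and 13.8% and the ctrl libraries between 16.3% and 17.5%.

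Over the 6 libraries the profile of miR-322-5p was matched most closely by miRNAs from outside the cluster. Likeness was measured as the root mean square difference of log2 CPM after each miRNA was centred on its mean, among 188 miRNAs outside the cluster with at least 100 CPM, whose median difference from miR-322-5p was 0.349. The nearest were miR-148a-5p (0.0525) and miR-376b-3p (0.0645), from chromosomes 6 and 12, followed by miR-676-3p (0.0864) from chromosome X, miR-214-5p (0.103) from chromosome 1 and miR-148a-3p (0.107), the other arm of miR-148a. Within the cluster the nearest was miR-503-3p (0.102), and the distance was 0.209 for miR-322-3p, its partner on the same hairpin, and 0.283 and 0.427 for miR-542-3p and miR-542-5p. These distances are a description of 6 libraries, which share the genotype difference, and were not tested. The cluster arms were far fewer than the 188 outside miRNAs and had no lower limit of level. The nearest matches inside and outside the cluster were therefore not found on equal terms.

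Other miRNAs of chromosome X were called in both directions. Of 37 other tested miRNAs from this chromosome 4 rose and 2 fell, or 16.2% called beside 25.7% of all tested miRNAs, and their median log2 fold change was -0.04. miR-676-3p fell, with 676 ± 8.75 CPM in ctrl and 449 ± 43.3 CPM in caNrf2 libraries (edgeR adjusted p = 8.16e-04). miR-374b-5p fell as well, with 79.9 ± 7.42 and 49.5 ± 1.35 CPM (edgeR adjusted p = 0.00213). miR-672-5p rose, with 39.0 ± 3.13 CPM in ctrl and 106 ± 7.16 CPM in caNrf2 libraries (log2 fold change 1.44, edgeR adjusted p = 2.57e-05). The other 2 that rose were miR-672-3p and the leukocyte miRNA miR-223-3p, both below a mean of 10 CPM and named after their values were seen. The log2 fold change of miR-223-3p, 1.90, was the highest of the 37 (edgeR adjusted p = 2.90e-04). miR-504-5p also rose, with 8.32 ± 0.79 and 13.6 ± 2.51 CPM (edgeR adjusted p = 0.0133).

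Markers of some of the other cell types that a skin culture could hold moved with the genotype. Their part in the lower cluster levels was not tested. Of all tested miRNAs 14.1% were called higher. All 4 tested of 5 skeletal muscle miRNAs rose, led by miR-133a-3p, with a summed level of 344 to 421 CPM in ctrl and 558 to 737 CPM in caNrf2 libraries. The main miRNA of mature muscle, miR-1a-3p, had only 9 counts over the ctrl and 16 over the caNrf2 libraries. Of 5 leukocyte miRNAs 3 rose and none fell, with summed levels of 205 to 259 and 336 to 393 CPM. Of 6 neural, glial and melanocyte miRNAs 3 rose among 5 tested, most of the summed level being miR-138-5p, with summed levels of 86.8 to 104 and 653 to 825 CPM. The defining neuronal miR-124-3p had 8 and 9 counts. None of 6 epithelial and 4 endothelial and erythroid miRNAs was called, with summed levels of 1011 to 1820.4 and 1573 to 2074 CPM and of 119 to 170 and 150.2 to 176 CPM. Median log2 fold changes were 0.89 for the tested muscle, 1.74 for the leukocyte, 0.60 for the neural, glial and melanocyte, 0.36 for the epithelial and 0.20 for the endothelial and erythroid miRNAs.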

How the data were processed

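For each of the 6 libraries the authors deposited a table of raw counts, 1 per mature miRNA. The mm10 build and the tools CASAVA 1.8, edgeR, featureCounts, Bowtie and cutadapt are listed in the submitters' processing notes without order or settings. Not given in the sources used here: the miRNA annotation release, and how reads that match several precursors were counted.

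Sample titles gave the groups and the library numbers. The count test was edgeR's quasi-likelihood test (edgeR 4.0.16, R 4.3.3) with TMM scaling, a filterByExpr minimum of 10 counts and no term besides group. P-values were adjusted by Benjamini-Hochberg over all 697 miRNAs, with a threshold of 0.05. SEs were derived from the F statistic, and log2 CPM used a pseudocount of 0.5. The edgeR test was checked on simulated counts, and the exact tests on small examples with known answers. Libraries with the same number were not treated as pairs, since their deviations correlated at 0.178, 0.114 and -0.218.

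The members, lists and alternatives were chosen with earlier results of these data known. Named miRNAs were the 10 arms, the other arms of their precursors, the tested miRNAs that share a seed, the 5 nearest profiles, the 4 other X chromosome miRNAs with the smallest p at 10 CPM or more, and up to 2 of the most abundant members of each marker list. miR-1a-3p and miR-124-3p were named after their values were seen, as the untested members of their lists. Mature sequences matched 1623 of the 1907 names.

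The alternatives were DESeq2 (1.42.0), RLE size factors, library totals alone, limma-voom (limma 3.58.1), omission of the 5 most abundant miRNAs, all names kept without a filter, only miRNAs averaging 10 CPM or more, the library number as a block, and each library left out in turn.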

Additional observations from a re-analysis of the deposited data

How the results depend on the processing

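The count of arms called lower was 6 to 8 in the 14 alternatives and none was called higher in any of them. Of the 97 alternative fits of the 7 called arms, 96 kept the call and the direction. Raising the filter to a mean of 10 CPM left 6 arms called, because miR-503-5p was no longer tested. miR-351-3p was not tested there either, and in all other alternatives all 10 arms were tested. The median log2 fold change of the arms was -0.56 to -0.46 when 1 library was left out, the lowest value being without caNrf2 library 1. The sign reversed for 3 miRNAs with values near 0, none of them called in any alternative. When 1 library was left out, miR-542-5p ranged from -0.057 (without caNrf2 library 1) to 0.192, miR-195a-5p from -0.255 to 0.034 (without caNrf2 library 2) and miR-125a-5p from -0.090 to 0.040 (without ctrl library 2). miR-125a-5p was also above 0 without caNrf2 library 2 or 3, at 0.0092 with library totals only and at 0.0077 with a mean of at least 10 CPM. Of the seed relatives, 1 to 2 were called lower when 1 library was left out, with 1 left without caNrf2 library 2 or 3. With RLE size factors, no filter, the replicate block or DESeq2, 3 seed relatives were called lower. Over all miRNAs 60 were called higher at a mean of at least 10 CPM. Of the other X chromosome miRNAs 2 to 4 were called lower when 1 library was left out, 4 of them without ctrl library 2, and 2 were called higher at a mean of at least 10 CPM. Fewer miRNAs are tested at 10 CPM. The other causes were not tested. With the replicate block 7 arms were called lower and the median log2 fold change of all 10 was -0.49. With 5 libraries the sign-flip tests cannot reach 0.05, so they were not repeated. Depth limits the 4 lowest arms, which rest on 85 to 350 counts per library.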
